A study of Mus musculus with 3 samples.

Results

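The exchangeable apolipoproteins are plasma proteins that coat lipoprotein particles and can pass from one particle to another. The genes Apoa1, Apoa2, Apoa4, Apoa5, Apoc1, Apoc2, Apoc3, Apoc4, Apoe and Apom were taken as the group by name, and a probe set was used where the platform annotation gave it that gene alone. All 10 were on the array, with 15 of its 45101 probe sets, against 18193 genes with such a probe set in all. They were compared between livers given a control virus and a liver given a virus that carries the iCre recombinase, an enzyme that cuts out DNA flanked by lox sites (floxed DNA).

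Livers of 3 mice aged 3 months, on a mixed strain background, were taken 1 week after each mouse had 400 microL of virus injected once into the peritoneum. The control group was 2 mice given MUP-EGFP-AAV8, an adeno-associated virus carrying the fluorescent protein EGFP, and the Cre group was 1 mouse given MUP-iCre-AAV8; the labels do not spell out MUP. By the series design all mice carried floxed HNF4alpha, but the sample labels give the genotype of the controls as wild type and that of the Cre mouse as HNF4alpha knockout. A genotype difference present before injection and the effect of the virus cannot be told apart. The labels call the control samples biological replicates. HNF4alpha, encoded by Hnf4a, is a nuclear receptor of hepatocytes.

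As background, the liver and the intestine make most of the circulating apolipoproteins. Some members are the structural proteins of high-density lipoprotein (HDL), the particle that carries cholesterol back to the liver. Others ride on triglyceride-rich particles, the chylomicrons and very-low-density lipoprotein (VLDL), where they switch lipoprotein lipase on or off or bind the receptors that clear the remnants. Several of these genes are classical targets of HNF4alpha, which binds elements near them, and most of the family lies in 2 gene clusters.

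Values are deposited log2 expression, in which 1 unit is a doubling of signal. Differences are Cre minus the mean of the control livers, followed by the moderated standard error from limma (SE). A gene is called lower or higher where its limma adjusted p over all fitted genes was under 0.05. Levels are compared within a probe set only. The Cre value of each gene rests on 1 mouse, and limma's test assumed that it varies as the controls do.

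The arrays had medians between 4.15 and 4.18 and a highest value of 15.048 on each. Over probe sets, which are no independent replicates of each other, Pearson's r was 0.993 for the control pair and 0.970 and 0.972 for Cre with each control. Hnf4a had 4 probe sets, and each gave its lowest value with Cre virus. The one standing for the gene, 1427001_s_at, read 11.91 and 11.96 with control virus and 11.38 with Cre virus (-0.55 ± 0.10 SE, limma adjusted p = 0.0401, from 0.0108 to 0.176 over 10 other settings, in 4 of which it did not pass). With every probe set fitted on its own, 1421983_s_at fell the most (7.69 and 7.72 against 6.52, -1.18 ± 0.14 SE, limma adjusted p = 0.0282), and 1427000_at (-0.67), 1450447_at (-0.61) and 1427001_s_at (limma adjusted p = 0.0525) did not pass. Where these probes lie relative to the floxed part was not analysed here. A probe set outside that part does not read it directly, so these values were not taken as a check of its removal. The hepatocyte markers, with albumin and transthyretin among them, had mean values of 13.93 and 13.92 with control virus and 13.95 with Cre virus over 9 genes. Of the 9, 1 was lower, Hpx (-0.71), and none higher (5.21% and 6.71% of all fitted genes). At an unadjusted limma p under 0.05, 1 was lower and 3 higher (10.8% and 20.4% of all fitted genes). Albumin read 14.75 and 14.72 with control virus, near the highest value on the array, where differences can be compressed.

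In the Cre liver, 6 of the 10 apolipoprotein genes were lower and none was higher. By measured difference, Apoa4 (-5.11) and Apom (-5.07) were lowest, followed by Apoc2, Apoc3, Apoa2 and Apoc4. Differences near the top of the array scale can be compressed, so this order of sizes may not hold. Apoa1, Apoa5, Apoc1 and Apoe did not pass the test. Over all 12735 genes fitted, 5.21% were called lower and 6.71% higher by the same limma rule. A background chosen after the data were seen was the 384 fitted genes at least as bright in the controls as the dimmest apolipoprotein gene. Of these, 30.7% were lower and 7.03% higher, so the share called lower was larger than on the array at large. Genes bright only in the Cre liver could not enter this background, which favours genes called lower. The median difference of the 10 genes was -1.31, against 0.09 over all fitted genes and -0.08 over those bright genes. At an unadjusted limma p under 0.05, none of the 10 was higher (20.4% of all fitted genes) and 8 were lower (10.8%). In bulk liver RNA, fewer cells of a type and less RNA per cell cannot be told apart.

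**Figure D1:**
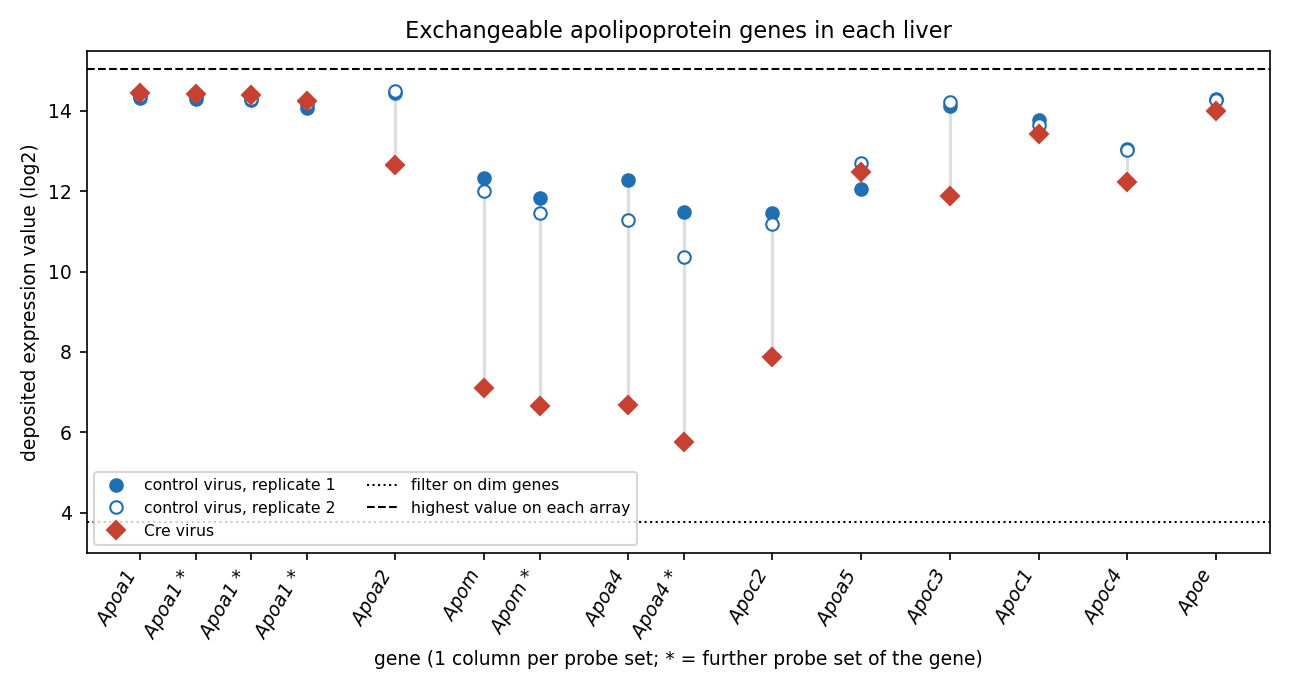
Deposited log2 expression (vertical axis) of each probe set of the 10 apolipoprotein genes (horizontal axis, ordered by role) in the control livers (blue, replicate 2 open) and the Cre liver (red diamonds). The dashed line is the highest value on each array, 15.048, and the dotted line the filter on dim genes, 3.77; the Cre points of Apom, Apoa4 and Apoc2 lie far below both control points, while those of Apoa1 overlap them or lie just above.

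Of the HDL proteins, Apoa1 encodes the main structural protein of the particle and the activator of the cholesterol-esterifying enzyme LCAT. Its probe set 1438840_x_at read 14.33 and 14.36 with control virus and 14.44 with Cre virus. The Cre liver lay just above both controls, by 0.11 and 0.08. The difference was 0.09 ± 0.08 SE (limma adjusted p = 0.45), with a 95% interval that runs from 92.5% to 123% of the control level. The other 3 probe sets, 1419233_x_at, 1455201_x_at and 1419232_a_at, gave 0.09, 0.11 and 0.14. All 4 have suffixes of probe sets that can read more than 1 transcript, as do the only probe sets of Apoa2 and Apoe. Apom and Apoa4 each had 1 probe set with such a suffix and 1 without.

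Apoa2 encodes the second structural protein of HDL. It read 14.45 and 14.50 with control virus and 12.67 with Cre virus. The controls lay within 0.04 of each other, and the Cre liver stood far below both. The fall was 3.50-fold (-1.81 ± 0.08 SE, limma adjusted p = 0.00206), which leaves 28.6% of the control level (95% interval 24.6% to 33.2%). Apoa1 and Apoa2, the main proteins of the same particle, thus had intervals of the difference that did not overlap.

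Apom encodes a lipocalin that sits on HDL and carries sphingosine-1-phosphate. Probe set 1419095_a_at read 12.33 and 12.02 with control virus and 7.10 with Cre virus. Against the lower control alone the difference was -4.92. The fall was 33.7-fold (-5.07 ± 0.17 SE, limma adjusted p = 0.00132), to 2.97% of the control level (95% interval 2.16% to 4.09%). The other probe set, 1419096_at, was at 11.83 and 11.45 against 6.66, a difference of -4.97 ± 0.20 SE. Both probe sets of Apom therefore gave a fall of nearly the same size. Of all fitted genes, 0.236% had a difference as low as Apom or lower.

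Apoa4 encodes an apolipoprotein of chylomicrons and HDL that is made mainly in the intestine and, in rodents, also in the liver. Probe set 1436504_x_at read 12.27 and 11.30 with control virus and 6.67 with Cre virus. The controls differed from each other by 0.98, and 0.699% of fitted genes had a gap at least as large. Against the lower of them the Cre liver was at -4.63. The fall was 34.6-fold (-5.11 ± 0.43 SE, limma adjusted p = 0.00882), to 2.89% of the control level (95% interval 1.29% to 6.48%). Probe set 1417761_at was at 11.49 and 10.37 against 5.77 (-5.16 ± 0.50 SE), with a like gap between the controls. The SE of Apoa4 was the largest of the 10 genes. Of the 6 intestinal markers on the array, Vil1, Lct, Alpi, Cdh17 and Muc2 were below the filter on dim genes. The sixth, Fabp2, which encodes the intestinal fatty acid binding protein, read 9.45 and 9.79 with control virus and 4.86 with Cre virus (-4.76 ± 0.20 SE, limma adjusted p = 0.00171). Its part in the result for Apoa4 was not tested.

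Of the regulators of lipoprotein lipase, Apoc2 encodes the obligate activator of the enzyme. It read 11.46 and 11.20 with control virus and 7.88 with Cre virus. The Cre value was more than 3 units below both. The fall was 10.9-fold (-3.45 ± 0.15 SE, limma adjusted p = 0.00208), to 9.14% of the control level (95% interval 6.84% to 12.2%).

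Apoc3 encodes an inhibitor of the lipase and of remnant clearance, and so acts against Apoc2. It read 14.13 and 14.21 with control virus and 11.87 with Cre virus. The groups were far apart compared with the gap of 0.08 between the controls. The fall was 4.92-fold (-2.30 ± 0.09 SE, limma adjusted p = 0.00146), to 20.3% of the control level (95% interval 17.2% to 24.0%). The control mean of Apoc3 lay 0.87 below the highest value on the array and that of Apoc2 3.72 below, and differences near the top can be compressed. Both the activator and this inhibitor were lower, and the sizes of their falls cannot be ranked.

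Apoa5 encodes a protein of triglyceride-rich particles that promotes lipolysis. It read 12.05 and 12.71 with control virus and 12.49 with Cre virus. The Cre liver lay between the controls, whose gap of 0.66 was matched or exceeded by 2.62% of fitted genes. The difference was 0.11 ± 0.29 SE (limma adjusted p = 0.823), and its direction rests on the control chosen: 0.44 against replicate 1 and -0.22 against replicate 2. The 95% interval reaches from 62.0% to 188% of the control level, so these arrays leave a wide range for Apoa5.

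Apoc1 encodes a small apolipoprotein that inhibits lipases and remnant uptake. It read 13.78 and 13.65 with control virus and 13.44 with Cre virus. The Cre liver was below both controls, by 0.34 and 0.21, but the gap between the controls was itself 0.13. The difference of -0.28 ± 0.10 SE did not pass over all genes (limma adjusted p = 0.145).

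Apoc4 encodes a minor apolipoprotein of VLDL. It read 13.06 and 13.03 with control virus and 12.24 with Cre virus. The controls nearly coincided and the Cre liver lay below both. The fall was 1.75-fold (-0.80 ± 0.09 SE, limma adjusted p = 0.0155), to 57.3% of the control level (95% interval 48.6% to 67.4%). Apoc4 was the only one of the 6 lower genes that fell by less than 2-fold, and it did not pass without an intensity trend in the variance model (limma adjusted p = 0.0507, against values from 0.00207 over 10 settings).

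Apoe encodes the ligand by which remnants bind the LDL receptor and its relatives, and it is made by hepatocytes and macrophages. It read 14.31 and 14.28 with control virus and 14.00 with Cre virus. The Cre liver was below both controls by about 0.3, and the controls differed by 0.03. The difference of -0.29 ± 0.08 SE did not pass (limma adjusted p = 0.088, from 0.0556 to 0.249 over 9 other settings), with a 95% interval of 70.6% to 94.4% of the control level. The mean of 8 macrophage markers was 6.04 and 6.43 with control virus and 6.98 with Cre virus, with 7 of 8 above both controls (49.7% of all fitted genes) and 1 of 8, Marco, called higher (1.88 ± 0.16 SE, limma adjusted p = 0.0097, against 6.71% of all fitted genes). The part of macrophages in the level of Apoe was not tested.

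**Figure D2:**
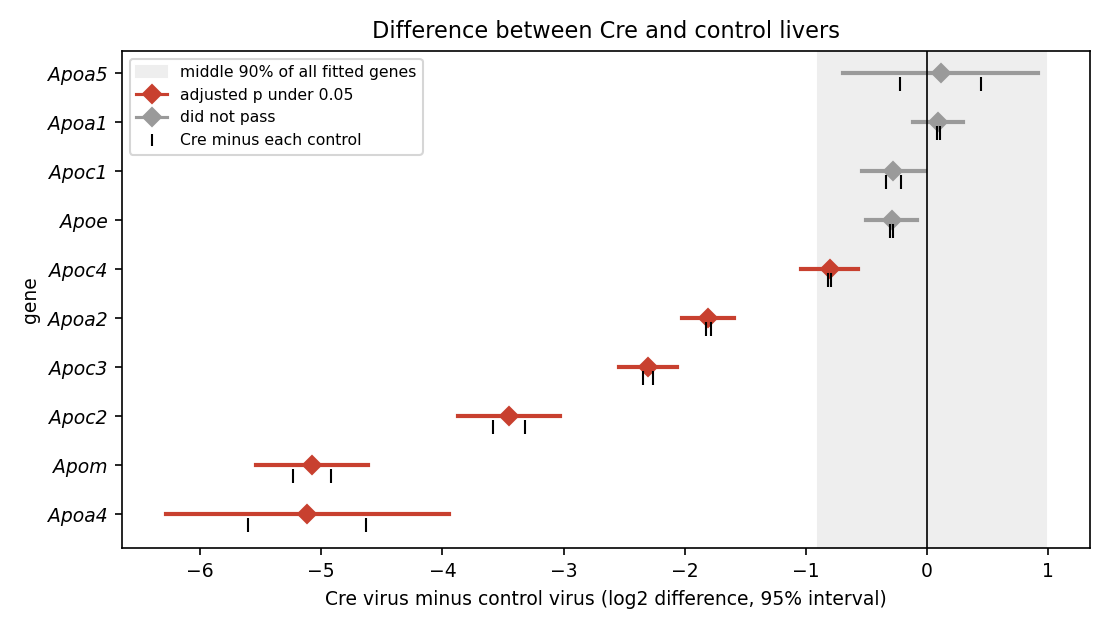
Log2 difference, Cre minus control (horizontal axis), for each apolipoprotein gene (vertical axis, sorted), with limma's moderated 95% interval; black ticks are the differences from each single control. The grey band holds the middle 90% of all fitted genes, and 5 genes have intervals wholly below it, from Apoa2 at -1.81 to Apoa4 at -5.11, while Apoa1 and Apoa5 sit around 0.

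Taken against each control singly, Apoa2 was at -1.79 and -1.83, Apoc3 at -2.26 and -2.34, Apoc2 at -3.58 and -3.32, and Apoc4 at -0.82 and -0.79. Apoa4 moved the most with the control chosen, from -5.60 to -4.63. By size alone, 5 of the 10 genes, Apoa2, Apoa4, Apoc2, Apoc3 and Apom, were at least 2-fold below both control livers. The same rule, which uses no test, took in 3.72% of all fitted genes and 19.5% of the 384 bright ones. In 8 of the 10 the Cre liver was below both controls, against 33.6% of all fitted genes and 50.5% of the bright ones. Apoa1 lay above both, as did 49.7% of all fitted genes, and Apoa5 between them.

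Several of these probe sets were close to the top of the array scale, where differences can be compressed. The control means of Apoa2, Apoa1, Apoe, Apoc3 and Apoc1 were 0.57, 0.70, 0.76, 0.87 and 1.33 below the highest value on the array. Apoa2 and Apoc3 fell from that range, and Apoa1, Apoe and Apoc1 stayed in it. Apoc2, Apoa4 and Apom, the 3 genes with the largest measured falls, had control means 3.72, 3.26 and 2.87 below the highest value. Those of Apoa5 and Apoc4 were 2.67 and 2.00 below it. How far compression shrank the differences of Apoa2, Apoa1, Apoe, Apoc3 and Apoc1 was not tested. At the other end, the Cre levels of Apoa4 (6.67), Apom (7.10) and Apoc2 (7.88) were all above the filter on dim genes at 3.77.

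**Figure D3:**
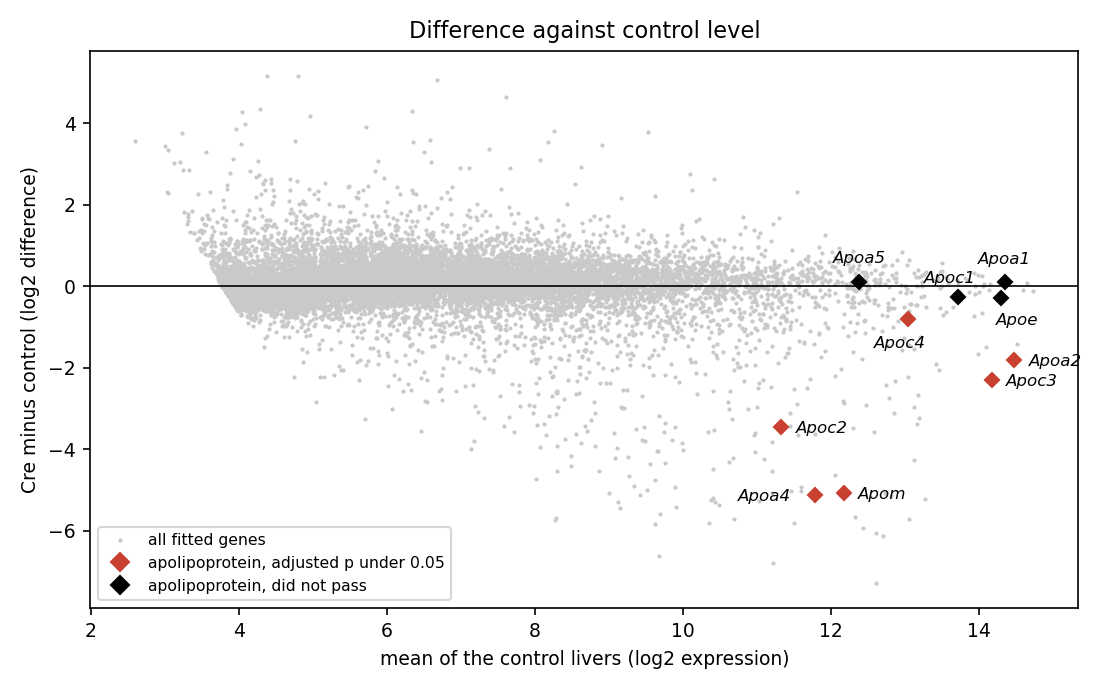
Log2 difference, Cre minus control (vertical axis), against the mean log2 expression of the control livers (horizontal axis) for all 12735 fitted genes (grey) and the apolipoprotein genes (diamonds, red where called lower). All 10 lie at the bright end, at a control mean of 11.33 or more. The 3 dimmest, Apoc2, Apoa4 and Apom, are the 3 with the largest measured falls. Apolipoprotein genes that did not pass start at a control mean of 12.38.

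The genes lie at 4 places in the genome. In the order of the RefSeq table, Apoa1, Apoc3, Apoa4 and Apoa5 follow each other on chromosome 9, and Apoc2, Apoc4, Apoc1 and Apoe on chromosome 7; Apoa2 is on chromosome 1 and Apom on chromosome 17. In the chromosome 9 cluster the middle genes, Apoc3 (-2.30) and Apoa4 (-5.11), were lower, and the outer ones, Apoa1 (0.09) and Apoa5 (0.11), did not pass. In the chromosome 7 cluster the genes called lower were the adjacent pair Apoc2 (-3.45) and Apoc4 (-0.80) at one end, and Apoc1 (-0.28) and Apoe (-0.29) at the other end did not pass. Genes called lower and genes that did not pass thus lay side by side in both clusters; the differences between them were not tested directly.

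Limma called fitted neighbours of Apoa2 but none at the other places. Over all fitted genes, 5.21% were called lower and 6.71% higher (10.8% and 20.4% at an unadjusted p under 0.05). Counts of 0 among so few genes are therefore no result about position. Of 8 fitted neighbours of the Apoa1 cluster, limma called none (0 at an unadjusted p under 0.05), with differences between -0.39 and 0.47. Of 7 neighbours of the Apoe cluster it called none (1 lower at an unadjusted p under 0.05, Nectin2 at -0.57), and of 4 neighbours of Apom none (0 at an unadjusted p under 0.05), with differences between 0.02 and 0.36. Of 5 fitted neighbours of Apoa2, limma called 1 lower and 2 higher (1 lower and 3 higher at an unadjusted p under 0.05). Apoa2 had called genes on one side in both directions. Tomm40l (2.91 ± 0.15 SE) next to it was higher, Nr1i3 (-3.18 ± 0.14 SE), which encodes the xenobiotic receptor CAR, was lower, and Pcp4l1 (5.15 ± 0.20 SE) was higher. On the other side Fcer1g was at 0.18 and did not pass.

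RefSeq promoter windows on GRCm38.p6, 250 bases before to 50 after an annotated start, matched 8 of the 10 genes, all but Apoc1 and Apoc3, in 12 windows. They are shown for the 3 genes with the largest measured falls and for the 2 chromosome 9 genes that did not pass. For Apoa5 the first of 2 windows is shown. A reader can thus set the sequences of changed and uncalled genes side by side. Capitals mark the only match to CAAAGNNCA, a form that covers the HNF4 binding forms CAAAGTCCA and CAAAGGTCA, and matches to AGGTCA or GGGTCA, elements bound by nuclear receptors, on either strand.
Apoa4, chr9:46240594-46240893, plus strand: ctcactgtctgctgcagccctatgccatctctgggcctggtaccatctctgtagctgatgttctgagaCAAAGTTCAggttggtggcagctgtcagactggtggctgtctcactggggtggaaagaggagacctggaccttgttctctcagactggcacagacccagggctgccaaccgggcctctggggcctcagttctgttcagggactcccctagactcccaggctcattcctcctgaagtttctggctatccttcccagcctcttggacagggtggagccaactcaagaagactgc
Apoc2, chr7:19677892-19678191, minus strand: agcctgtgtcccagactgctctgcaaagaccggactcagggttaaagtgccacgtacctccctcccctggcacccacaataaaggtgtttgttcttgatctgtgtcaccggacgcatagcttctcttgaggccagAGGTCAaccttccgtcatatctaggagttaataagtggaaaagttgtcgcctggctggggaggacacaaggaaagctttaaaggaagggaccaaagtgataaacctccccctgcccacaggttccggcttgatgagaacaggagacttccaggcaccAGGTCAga
Apom, chr17:35131752-35132051, minus strand: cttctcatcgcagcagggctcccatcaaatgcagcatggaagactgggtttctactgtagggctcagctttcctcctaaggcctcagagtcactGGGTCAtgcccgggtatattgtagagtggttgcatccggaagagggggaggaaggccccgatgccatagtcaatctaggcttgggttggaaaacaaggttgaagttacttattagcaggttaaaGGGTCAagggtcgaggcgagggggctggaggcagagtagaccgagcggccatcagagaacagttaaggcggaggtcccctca
Apoa1, chr9:46228380-46228679, plus strand: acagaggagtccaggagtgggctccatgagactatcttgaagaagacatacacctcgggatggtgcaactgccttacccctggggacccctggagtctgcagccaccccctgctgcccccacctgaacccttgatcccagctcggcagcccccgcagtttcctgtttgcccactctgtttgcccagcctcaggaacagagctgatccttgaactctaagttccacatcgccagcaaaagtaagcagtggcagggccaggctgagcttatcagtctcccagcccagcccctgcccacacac
Apoa5, chr9:46268358-46268657, plus strand: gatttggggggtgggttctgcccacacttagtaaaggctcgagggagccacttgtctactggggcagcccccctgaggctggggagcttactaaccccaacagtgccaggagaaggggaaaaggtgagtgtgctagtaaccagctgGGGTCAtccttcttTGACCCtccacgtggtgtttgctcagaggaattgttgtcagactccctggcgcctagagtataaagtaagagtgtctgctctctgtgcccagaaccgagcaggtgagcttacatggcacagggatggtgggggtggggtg

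CAAAGNNCA was found in 1 of the 12 windows, that of Apoa4, from position -182 to -174 relative to the start. It was in 6.36% of all 32851 promoter windows of the same length. The windows of Apoa5 overlap each other, as do some of those of Apoe, so the 12 are not separate promoters. By gene, the form was in 1 of the 8 apolipoprotein genes with a window and in 7.27% of all 27025 genes. CAAAGTCCA (0.475% of all windows), CAAAGGTCA (0.478%) and the HNF1 form, GTTAAT, any 1 base and ATTAA (0.0609%), were in none of the 12. The elements AGGTCA and GGGTCA were searched after the first result. AGGTCA (16.3% of all windows) was in those of Apoc2, Apoc4 and Apoa2, and GGGTCA (13.7%) in those of Apom, Apoa5 and Apoe; none of these matches overlapped the CAAAGNNCA match. TATAAA (13.6%) was found for Apoa2, Apoe and Apoa5, and Apoa1 held none of the forms searched. The short elements were present in genes that fell and in genes that did not pass, such as Apom and Apoa5. A match describes letters in the window and is no evidence of binding. Only exact forms were searched, so a window without a match can still hold an imperfect form. Elements farther away were not searched.

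The rest of the lipoprotein pathway was read from lists of genes by role. Of 10 other fitted apolipoprotein and plasma lipoprotein genes, 7 were lower (5.21% of all fitted genes) and none higher (6.71%). Their median difference was -1.19. At an unadjusted limma p under 0.05, 7 were lower (10.8% of all fitted genes) and 1 higher (20.4%). Saa1 (-2.98 ± 0.17 SE) and Saa2 (-2.00 ± 0.27 SE), acute phase apolipoproteins of HDL, fell, as did Apob (-2.96 ± 0.15 SE), the non-exchangeable protein around which VLDL forms. Apob read 13.27 and 12.98 with control virus and 10.17 with Cre virus. Apof was at 0.18 and Apol7a at -0.07, and neither passed. The exchangeable apolipoproteins and these others thus had similar medians, both far from the 0.09 of all fitted genes. Several of the others, such as Apob and Apoh, were as bright in the controls as the exchangeable apolipoproteins. Of the 384 bright genes, 30.7% were called lower and 7.03% higher, with a median of -0.08. No test of either list was made.

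Of 13 genes of particle assembly and secretion, 4 were lower (5.21% of all fitted genes) and 2 higher (6.71%), with a median of -0.21. Cideb, which promotes VLDL lipidation, was at -4.21 ± 0.13 SE, Pla2g12b at -3.59 ± 0.12 SE and Tm6sf2 at -3.58 ± 0.18 SE, both needed for normal VLDL secretion. Mttp, which loads lipid onto apolipoprotein B, was the fourth (-2.65 ± 0.16 SE), and Sort1 (1.16 ± 0.17 SE) and Mia3 (0.60 ± 0.11 SE, limma adjusted p = 0.0489), trafficking proteins, were higher. Sar1b (0.05) and Pdia3 (0.08) did not pass.

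Of 10 genes of remodelling in plasma, 1 was lower (5.21% of all fitted genes) and 2 higher (6.71%), with a median of 0.03. Angptl8, an inhibitor of lipoprotein lipase, read 6.19 and 6.53 with control virus and 9.88 with Cre virus (3.52 ± 0.20 SE, limma adjusted p = 0.00322). Lpl, the lipase itself, was at 7.86 and 7.68 against 9.55 (1.79 ± 0.15 SE). So the lipase gene and this inhibitor were higher in the same liver in which its activator gene Apoc2 and its inhibitor gene Apoc3 were lower. Lcat, whose enzyme Apoa1 activates, was lower (-0.62 ± 0.11 SE). Lipg was at -1.41 ± 0.52 SE without passing, and Gpihbp1 (0.01) and Bmp1 (0.05) did not pass.

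Of 10 genes for receptors and cholesterol export, none was lower and 1 was higher, Abcg1, a cholesterol exporter (1.16 ± 0.19 SE). Over all fitted genes, 5.21% were lower and 6.71% higher. At an unadjusted limma p under 0.05, 1 was lower (10.8% of all fitted genes) and 5 were higher (20.4%). Above both controls lay 8 of the 10 (49.7% of all fitted genes). Vldlr, a receptor for Apoe-bearing particles, read 3.96 and 5.61 with control virus and 7.36 with Cre virus (2.57 ± 0.72 SE). It did not pass (limma adjusted p = 0.099), and its controls differed by 1.65. Lrp1, another Apoe receptor, was at 0.54 without passing. Abca1, which loads lipid onto Apoa1, was at 0.03 and Scarb1, the HDL receptor, at 0.16, and neither passed. The median was 0.39.

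Of 14 fitted factors known to act on apolipoprotein promoters, 2 were lower (5.21% of all fitted genes) and none was higher (6.71%). The 2 were Cebpa (-1.26 ± 0.13 SE) and Hnf4a. At an unadjusted limma p under 0.05, 6 were lower (10.8% of all fitted genes) and 2 higher (20.4%). The call of Hnf4a was lost in 4 of 10 other settings. Ppara was at -1.58 ± 0.32 SE (limma adjusted p = 0.054) and Foxa2 at 0.64, without passing. The nuclear receptor genes Nr1d1 (-0.03) and Rora (-0.11) did not pass. The median of the list was -0.35.

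**Figure D4:**
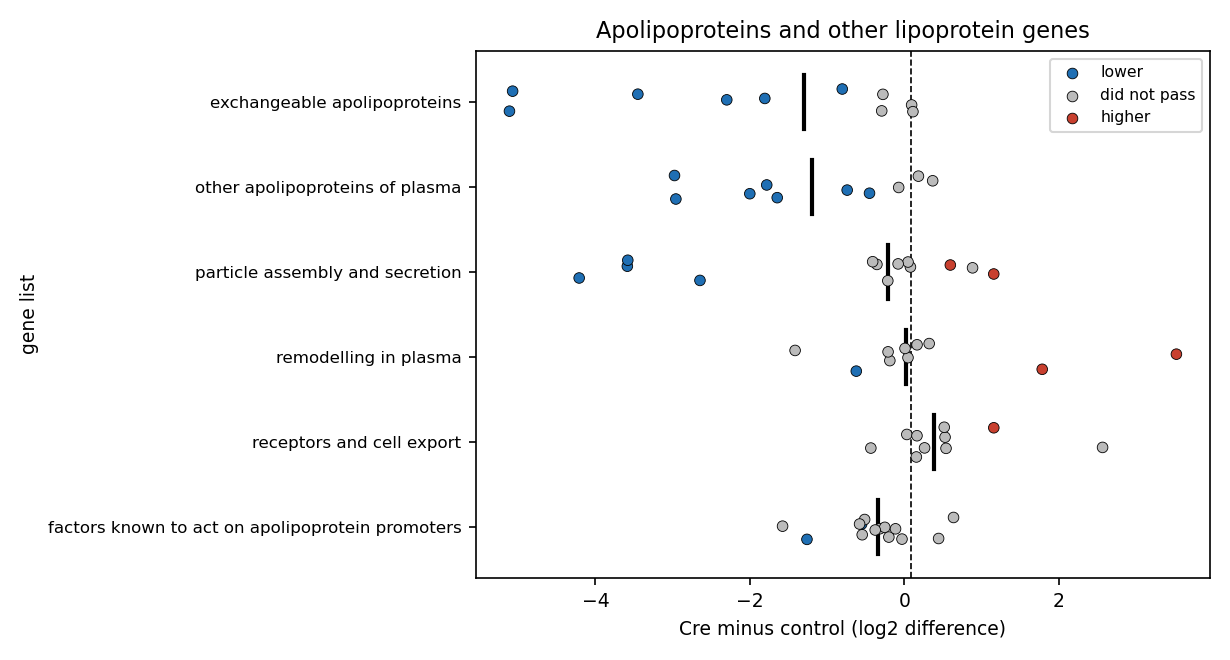
Log2 difference, Cre minus control (horizontal axis), of each fitted gene in 6 lipoprotein gene lists (vertical axis; points are jittered), coloured by the limma call, with list medians as bars and the median of all fitted genes, 0.09, as a dashed line. The apolipoprotein lists sit to the left of the other lists, with medians of -1.31 and -1.19, and the receptor list at 0.39.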

How the data were processed

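Total liver RNA of 3 mice was labelled with biotin and hybridised to 1 single-colour oligonucleotide array per mouse, per the labels' protocols. What the authors deposited is log2 expression for each probe set. The submitters' processing notes name Partek 6.5 and RMA, a method that subtracts background, makes the arrays' distributions alike and summarises the probes of a set. No source used here states the base of the logarithm, and base 2 was inferred from how far the values range. A shift shared by all genes is not visible after RMA, and differences can be compressed near the array background and near the top of the scale.

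Of 45101 probe sets, 34945 listed 1 gene in the platform annotation. Symbols were updated by Entrez ID through a RefSeq table of GRCm38.p6, used for names and gene order. The probe set with the highest mean over the arrays stood for each of 18193 genes, and the 12735 genes whose mean reached the 30th percentile (3.77) entered limma 3.58.1 in R 4.3.3 (lmFit, eBayes with an intensity trend). The controls left 1 residual degree of freedom, moderation added 3.18, and the spread of the Cre group was taken to be that of the controls. P values are two-sided and were adjusted by Benjamini-Hochberg across the 12735 genes, with a threshold of 0.05. An exact permutation of 2 arrays against 1 cannot go below p = 0.333 and was not used. The number of arrays limits the precision.

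The apolipoprotein genes, the other gene lists and the tests were chosen with earlier results of these data known. Every apolipoprotein gene was named; of each other lipoprotein list the 3 fitted genes with the largest and up to 2 with the smallest absolute difference were named, and genes named beside them were chosen after their values were seen. Promoter sequences are RefSeq windows on GRCm38.p6; pandas 2.3.3 and matplotlib 3.10.9 in Python 3.11.15 were used for tables and figures.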

Additional observations from a re-analysis of the deposited data

How the results depend on the processing

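The count of apolipoprotein genes called lower stayed between 5 and 7 over 13 alternatives, and 0 were called higher in each. It was 6 in 8 of them. It was 5 without an intensity trend, with a threshold of 0.01 and by the rule of at least 2-fold from both controls, in each of which Apoc4 was not counted. It was also 5 without probe sets that can read several transcripts (suffix _s_at, _x_at or _a_at), where Apoa1, Apoa2 and Apoe had no probe set left. With a threshold of 0.1 it was 7, with Apoe added.

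With either control left out no residual degrees of freedom remain, so those differences have no test: without replicate 1 and without replicate 2, Apoa4 was at -4.63 and -5.60, Apom at -4.92 and -5.23, and Apoa5 changed sign (-0.22 and 0.44). Over all alternatives Apoa2 ranged from -1.83 to -1.79, Apoc2 from -3.58 to -3.32, Apoc3 from -2.34 to -2.26 and Apoa1 from 0.08 to 0.19. The median over all genes was between 0.01 and 0.15 in these settings. The share of promoters with CAAAGNNCA was 5.49% when only the bases before the start were searched. No paired analysis was possible because the Cre group has 1 sample and no replicate number in the labels. With a background of only those genes bright in the controls, chosen after the data were seen, 30.7% in place of 5.21% were called lower. Hnf4a did not pass without an intensity trend (limma adjusted p = 0.0978), without a filter (0.0672), with every probe set alone (0.0525) or without suffixed probe sets (0.176). Precision is limited by the small number of arrays; the effect of the top of the scale was not tested.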
